A study of Mus musculus with 4 samples.

Results

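The constant regions of the immunoglobulin heavy chain and of the kappa light chain were examined in lymphoma B cells of λ-MYC mice. They are 9 genes chosen by name, Ighm, Ighd, Ighg3, Ighg1, Ighg2b, Ighg2c, Ighe, Igha and Igkc, among the 34866 genes of the deposited table, and all 9 were found there through their identifiers in GENCODE M21. The animals were λ-MYC Tom+/ki mice, which carry a human MYC gene under immunoglobulin λ regulatory sequences (λ-MYC+/TG), a knock-in Cre allele that is active in B cells and a tdTomato reporter at Rosa26 (R26tdTom+/ki). All 4 libraries share these alleles. Tomato is switched on in cells in which Cre has been active and stays on in their descendants, so Tom+ marks past and not present Cre activity. Splenocytes of 2 sick mice, each with an IgM+ Tom+ tumor (tumors #1 and #2), were sorted into B220+ IgM+ Tom+ and B220+ IgM+ Tom- cells, which gave 1 library of each kind per tumor. The age and sex of these 2 individual mice are not given in the sources used here, the study used both sexes, and a comparison between tumors is one between 2 animals. Because cells were sorted for surface IgM, the presence of Ighm in every library follows from the gate.

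An antibody heavy chain consists of a rearranged variable region joined to a constant region, and the constant region sets the isotype. Resting B cells make IgM and IgD from a single long primary transcript, by alternative splicing and polyadenylation. In class switching, DNA is broken in repeated switch sequences upstream of the constant genes, the DNA between the breaks is deleted, and the same variable region is then joined to a γ, ε or α constant region. Before switching, the γ, ε and α genes can also be transcribed from their own promoters as germline transcripts. The table holds 1 value per gene, so germline and switched transcripts, membrane and secreted forms, and the expressed and the other allele cannot be told apart in it.

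The 8 heavy-chain genes lie on the minus strand of chromosome 12 of GRCm38 in the order Ighm, Ighd, Ighg3, Ighg1, Ighg2b, Ighg2c, Ighe, Igha. Ighm spans 113418558 to 113422730 and Igha, the last of them, spans 113254830 to 113260236. Measured between the starts of their first exons, Ighd lies 6.41 kb, Ighg3 61.5 kb and Igha 162.49 kb downstream of Ighm. Igkc, the single kappa constant gene, lies on the plus strand of chromosome 6 (70726435 to 70726966) and has 1 exon of 532 bases. GENCODE M21 lists a pair of transcripts for each heavy-chain gene, and for Ighm they have 4 exons (1493 bases) and 6 exons (1698 bases).

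The first 60 bases of the first constant exon, the length of 1 read of these libraries, are given for Ighm and Igha because they account for most of the unswitched and switched signal, and for the 4 γ genes because these are the members that resemble each other. They were read from the GENCODE M21 transcripts on GRCm38 (minus strand, written 5′ to 3′). Capitals in the γ genes mark the 22 positions at which the 4 differ. The intervals are chr12:113422671-113422730 for Ighm, chr12:113260177-113260236 for Igha, chr12:113361173-113361232 for Ighg3, chr12:113330464-113330523 for Ighg1, chr12:113307874-113307933 for Ighg2b and chr12:113288873-113288932 for Ighg2c.
Ighm: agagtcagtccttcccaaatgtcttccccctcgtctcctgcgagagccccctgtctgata
Igha: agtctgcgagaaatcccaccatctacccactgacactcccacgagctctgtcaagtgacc
Ighg3: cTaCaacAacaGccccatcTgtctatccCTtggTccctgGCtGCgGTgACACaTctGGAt
Ighg1: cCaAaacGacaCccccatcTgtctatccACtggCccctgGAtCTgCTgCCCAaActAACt
Ighg2b: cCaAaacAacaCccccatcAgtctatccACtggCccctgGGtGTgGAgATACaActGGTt
Ighg2c: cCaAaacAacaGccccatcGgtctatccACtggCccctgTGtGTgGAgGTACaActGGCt

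Over the whole first exon of 291 bases, Ighg1 and Ighg2b were 88.3% identical, with a longest identical run of 37 bases, and Ighg2c and Ighg3 were the least alike at 78.4%. Reads of 60 bases can therefore separate most of these genes. Of all windows of 60 bases in the annotated transcripts, 0% in Ighm, Ighd, Ighg1, Ighe, Igha and Igkc also occurred in another constant gene, compared with 1.18% in Ighg3, 2.64% in Ighg2b and 3.16% in Ighg2c. Reads down to 30 bases were kept after trimming, and at that length the shared windows were 15.8% in Ighg2c and 9.67% in Ighg2b but still 0% in Igha and Ighm. Windows shared with genes outside the 9 were found only in Ighd at 30 bases (0.214%). The value of Igha thus rested on sequence that no other annotated transcript holds, whereas the split among Ighg2b, Ighg2c and Ighg3 is less certain.

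**Figure D1:**
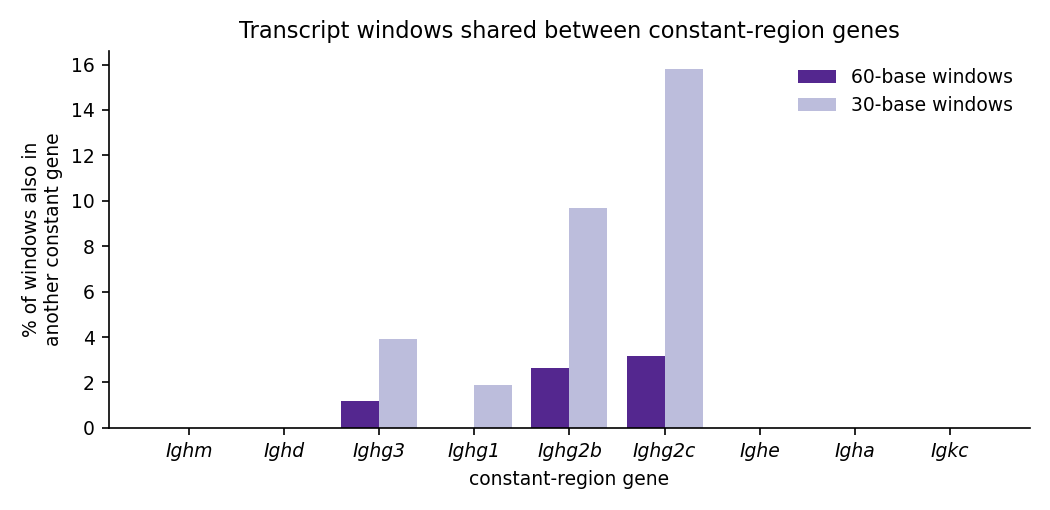
Percentage of windows in the transcripts of each constant gene that also occur in another constant gene (y axis), for windows of 60 bases (dark bars) and 30 bases (light bars). Sharing is limited to the 4 γ genes and is highest in Ighg2c, at 3.16% and 15.8%, while Igha, Ighm, Ighd, Ighe and Igkc have none.

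Levels are in TPM, a relative abundance of transcripts that is corrected for their length and scaled to a sum of 1000000 in each library. TPM retains no number of reads, so no counting interval and no limit of detection can be given, and a gene at 0 is only listed at 0. The 4 libraries are compared in ranges. Immunoglobulin genes of all kinds held 5.35% to 9.76% of TPM, with the highest share in Tom+ cells of tumor #2. Most of this share came from joining (J) gene segments, with 24650 to 41880 TPM for kappa and 9130 to 25560 TPM for heavy-chain J segments. The heavy-chain and kappa constant genes made up 10.8% to 13.0% of immunoglobulin TPM. In every library the kappa J sum exceeded Igkc, and the heavy-chain J sum exceeded the summed heavy-chain constant genes. How the length correction affects the values of J segments was not tested. J segments and constant genes may therefore not be comparable in TPM, and the shares of immunoglobulin TPM, which include J segments, are uncertain. The summed TPM of 8 B cell markers ranged from 1061 to 2968, and those of T cell markers (1.17 to 8.29), myeloid markers (2.64 to 13.4), NK cell markers (0.193 to 0.978) and the erythroid markers present in the table (0.619 to 21.5) were far lower. These are bulk samples, in which fewer cells of a type and less RNA per cell cannot be told apart.

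Among the 9 genes, Ighm, Ighd and Igkc were by far the highest in all 4 libraries, and the switched isotypes were at or near 0 with the exception of Igha in Tom+ cells of tumor #2. Only 3 of the 9 genes, Ighm, Ighd and Igkc, reached the limit for testing, which was 1 TPM in 2 or more libraries, and each of them passed it in all 4. Ighg3, Ighg2b and Igha reached 1 TPM in 1 library each, the Tom+ library of tumor #2, Ighg1 and Ighg2c stayed below 1 TPM, and Ighe was listed at 0 throughout.

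Ighm encodes the μ chain of IgM. It was at 1333.5 TPM in Tom- and 1255 TPM in Tom+ cells of tumor #1, and at 2191 TPM in Tom- and 3652 TPM in Tom+ cells of tumor #2. Both libraries of tumor #2 lay above both of tumor #1, and the Tom- values lay between the Tom+ values. Among all genes in a library, Ighm ranked 135th and 142nd in tumor #1 and 63rd and 37th in tumor #2.

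Ighd, the δ chain of IgD, had 44.8 TPM (Tom-) and 40.1 TPM (Tom+) in tumor #1, compared with 124 TPM (Tom-) and 159 TPM (Tom+) in tumor #2. The order of the libraries was the same as for Ighm. The tumors were further apart, with tumor #2 2.77-fold above tumor #1 in Tom- cells and 3.96-fold above it in Tom+ cells, against 1.64-fold and 2.91-fold for Ighm.

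Igkc, which forms the constant region of kappa light chains, had the highest level of the 9 genes in every library. Tumor #1 had 5379 TPM (Tom-) and 4933 TPM (Tom+), and tumor #2 had 4634 TPM (Tom-) and 8295 TPM (Tom+), where it ranked 29th and 12th among all genes. Unlike Ighm and Ighd, it was lower in tumor #2 than in tumor #1 in Tom- cells (0.862-fold) and higher in Tom+ cells (1.68-fold).

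**Figure D2:**
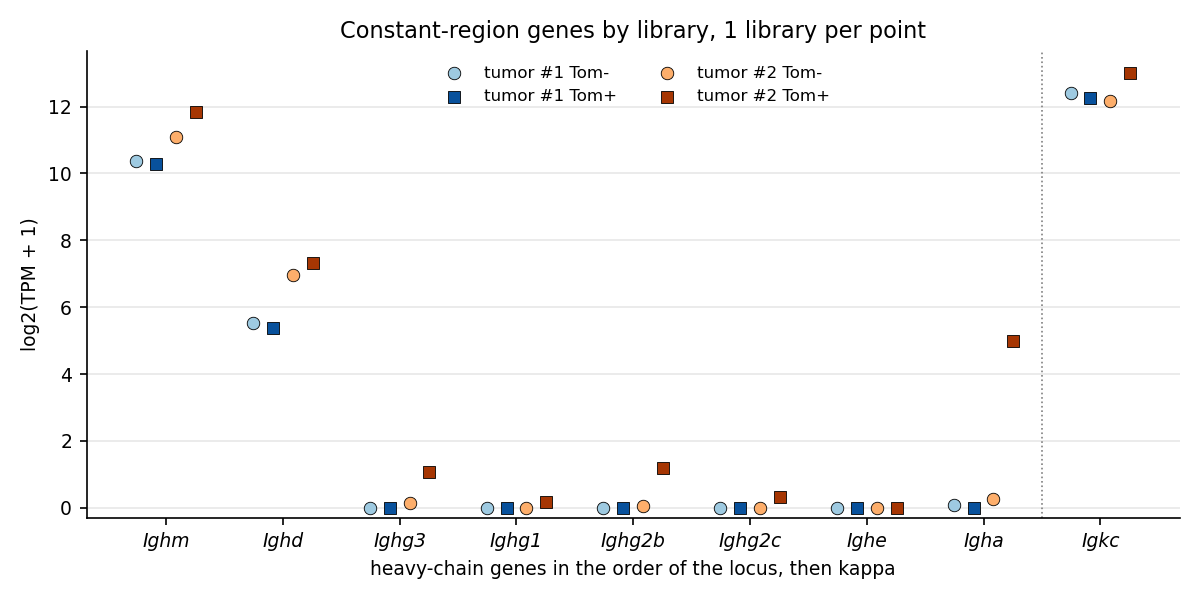
Level of the 9 constant-region genes, as log2(TPM + 1) on the y axis, with the heavy-chain genes in the order of the locus and Igkc last. Each point is 1 library (circles Tom-, squares Tom+, tumor #1 in light and dark blue, tumor #2 in orange and brown). Ighm, Ighd and Igkc are high in all 4 libraries, and Igha stands at 31.0 TPM in Tom+ cells of tumor #2 and at or below 0.207 TPM elsewhere.

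Whether cells with past Cre activity differed from Tom- cells of the same mouse was tested on log2(TPM + 1) by limma with the tumor as a block. The log2 fold change of Tom+ over Tom- cells was 0.32 for Ighm (SE 0.25, adjusted p = 0.936, limma), 0.36 for Igkc (SE 0.29, adjusted p = 0.936) and 0.10 for Ighd (SE 0.19, adjusted p = 0.963). None of the 3 tested members passed an adjusted p-value of 0.05, and 0% of the 11339 genes tested did so. The authors, with a paired edgeR test, did select differentially expressed genes at that threshold, so the 0% holds for limma on TPM. The unadjusted p-value was below 0.05 for 0 members, against 4.67% of all genes (530 genes). With 2 pairs and 1 residual degree of freedom per gene, only large and even changes can pass this test.

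The errors were large because the tumors moved apart. In tumor #1 the log2 fold changes were -0.088 for Ighm, -0.16 for Ighd and -0.12 for Igkc, and in tumor #2 they were 0.74, 0.35 and 0.84. All 3 tested members were thus lower in Tom+ cells of tumor #1 and higher in those of tumor #2, a pattern shown by 20.6% of the genes tested. Among all genes tested, 47.3% went in opposite directions in the tumors, 21.6% were higher and 29.5% lower in both, and 0 of the 3 members went the same way in both. In tumor #2, Ighm and Igkc were at least 1.5-fold higher in Tom+ cells on the log2(TPM + 1) scale, as were 9.36% of the genes tested. Ighd was 1.28-fold higher in TPM and did not reach that limit. The scale understates folds of low genes, so these shares are not those for folds of TPM. On the same scale, tumor #2 was at least 1.5-fold above tumor #1 in both Tom- and Tom+ cells for Ighm and Ighd but not for Igkc. Of the genes tested, 22.6% met that limit. Each tumor is 1 mouse, so differences between tumors were not tested. Of the 8 B cell markers, 7 were lower in the Tom+ cells of each mouse, as were 29.5% of all genes tested, and 1 went opposite ways, and their summed level fell short of that in Tom- cells both in tumor #1 (1061 against 1147 TPM) and in tumor #2 (2347 against 2968 TPM), so in tumor #2 Ighm and Igkc differed in the other direction.

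Ratios within a library do not depend on how libraries are scaled. Ighd and Ighm come from the same primary transcript, and their ratio depends on how that transcript is processed and how stable its products are. In bulk samples the ratio also depends on the mix of cells, and these parts cannot be told apart here. Ighd to Ighm was 0.0336 in Tom- and 0.0320 in Tom+ cells of tumor #1, and 0.0567 and 0.0436 in tumor #2. The ratio was lower in the Tom+ cells of each mouse and higher in tumor #2 than in tumor #1 in both kinds of cells. On the log2 scale it differed by -0.071 in tumor #1 and by -0.38 in tumor #2, with a mean of -0.23 ± 0.22 (SD, n = 2 tumors). The two-sided exact permutation test over the 2 pairs gave p = 0.5, the smallest value it can give.

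Zfp318, a factor needed for IgD expression, is a member of the list of secretion and heavy-chain RNA processing genes and was picked out after its values were seen. Its level was 8.54 TPM (Tom-) and 11.2 TPM (Tom+) in tumor #1, compared with 37.4 TPM (Tom-) and 30.9 TPM (Tom+) in tumor #2. Its level and the Ighd to Ighm ratio were both higher in the libraries of tumor #2. From Tom- to Tom+ cells they went opposite ways in tumor #1, where Zfp318 rose and the ratio fell. In tumor #2 both fell. A relation between them was not tested.

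Igkc exceeded the summed heavy-chain constant genes in every library. The ratio was 3.90 in Tom- and 3.81 in Tom+ cells of tumor #1, and 2.00 and 2.16 in tumor #2. It separated the mice rather than the Tom groups, with a log2 difference of tumor #2 from tumor #1 of -0.96 in Tom- and -0.82 in Tom+ cells. Between Tom+ and Tom- cells it differed by -0.035 in tumor #1 and 0.11 in tumor #2 (mean 0.037 ± 0.10, SD, n = 2 tumors, exact permutation p = 1.0). With the difference of the pooled groups, without the replicate block, its sign turned (-0.075), and with the λ constant genes added to Igkc it was -0.0034.

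The summed variable gene segments, which are separate features of the table, were read alongside. Summed Igkv segments relative to summed Ighv segments were 5.49 (Tom-) and 5.54 (Tom+) in tumor #1 and 1.71 (Tom-) and 1.66 (Tom+) in tumor #2, so the lower kappa-to-heavy ratio of tumor #2 was also present in the variable segments. Ighv segments relative to the heavy-chain constant genes were 0.989 and 0.912 in tumor #1 and 1.24 and 1.55 in tumor #2. Igkv segments relative to Igkc varied less, from 1.06 to 1.39 over the 4 libraries.

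Kappa was also set against λ, the other light chain, through the 4 genes Iglc1, Iglc2, Iglc3 and Iglc4. These genes resemble each other and the split of reads among them is uncertain, so their sum was used. Igkc relative to that sum was 8.26 in Tom- and 8.29 in Tom+ cells of tumor #1, and 4.72 and 6.83 in tumor #2. Kappa thus held 89.2% of light-chain constant TPM in both libraries of tumor #1, and 82.5% and 87.2% in Tom- and Tom+ cells of tumor #2. The log2 difference between Tom+ and Tom- cells was 0.0048 in tumor #1 and 0.53 in tumor #2 (mean 0.27 ± 0.37, SD, n = 2 tumors, exact permutation p = 0.5).

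**Figure D3:**
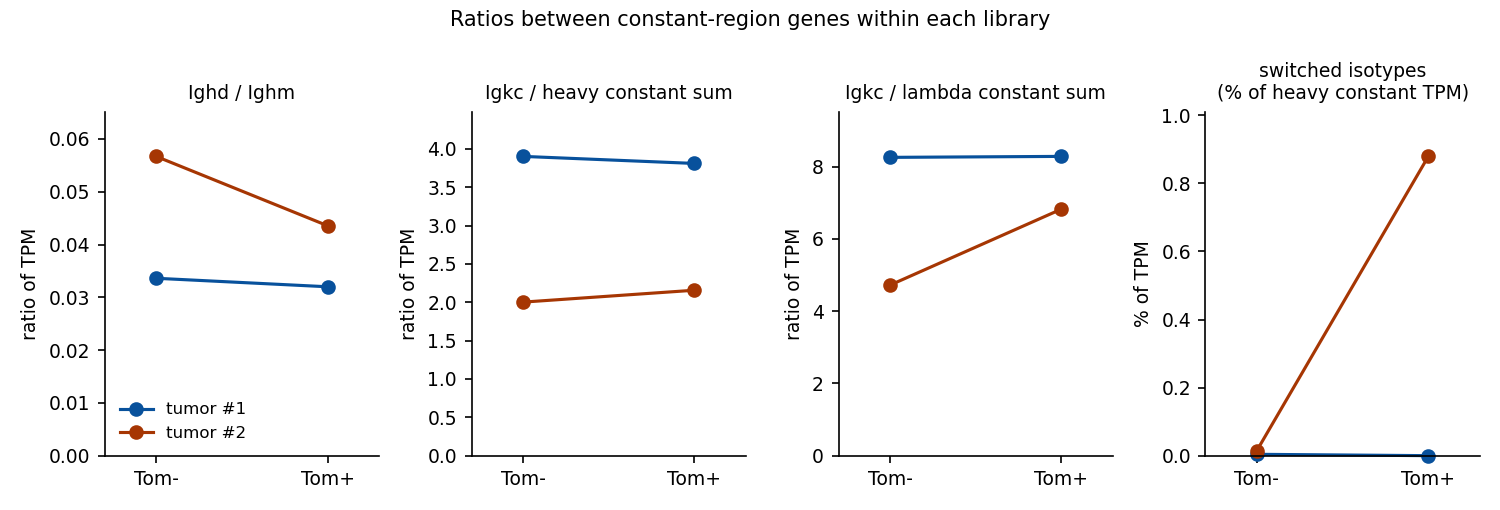
Ratios of TPM within each library for Tom- and Tom+ cells (x axis), joined within tumor #1 (blue) and tumor #2 (brown), and in the last panel the switched isotypes as a percentage of heavy-chain constant TPM. Points are single libraries and all y axes start at 0. The kappa-to-heavy ratio separates the tumors (3.90 and 3.81 against 2.00 and 2.16), and the switched share stands at 0.879% in Tom+ cells of tumor #2 and at or below 0.0152% elsewhere.

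Ighm made up 94.6% to 96.9% and Ighd 3.10% to 5.37% of heavy-chain constant TPM in the 4 libraries. The 6 switched genes together held 0.00398% in Tom- and 0% in Tom+ cells of tumor #1, and 0.0152% and 0.879% in Tom- and Tom+ cells of tumor #2. In the sorted IgM+ cells of tumor #1, all 6 were thus listed at 0 in Tom+ cells, and in tumor #2 they stayed below 1% of heavy-chain constant TPM. The sort for surface IgM selects against switched cells, and this share says nothing of cells outside the gate.

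Igha encodes the α chain of IgA, the isotype of mucosal secretions. It was at 0.0549 TPM in Tom- cells of tumor #1, was listed at 0 in Tom+ cells of that tumor, and was at 0.207 TPM in Tom- and 31.0 TPM in Tom+ cells of tumor #2. A single library therefore carried it, at 150-fold the level in Tom- cells of the same mouse, a fold over a value of unknown precision. It made up 0.807% of heavy-chain constant TPM there, below Ighd (4.14%) and above each γ gene. Igha was below the limit for testing. On the log2(TPM + 1) scale it differed by -0.077 in tumor #1 and by 4.73 in tumor #2 (mean 2.33), and with no filter on low TPM its adjusted p-value from limma was 0.929 (SE 1.41).

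The γ genes, which encode the IgG subclasses, showed the same library as the highest at much lower levels. Ighg2b was at 1.31 TPM and Ighg3 at 1.08 TPM in Tom+ cells of tumor #2, against 0.0341 and 0.110 TPM in Tom- cells of that tumor. Ighg2c (0.256 TPM) and Ighg1 (0.133 TPM) were above 0 only in that Tom+ library. In tumor #1 all 4 γ genes were listed at 0 in both libraries. Ighe, the ε chain of IgE, was listed at 0 in all 4.

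Summed over the 6 switched genes and divided by Ighm plus Ighd, the switched-to-unswitched ratio was 58.5-fold higher in Tom+ than in Tom- cells of tumor #2, a log2 difference of 5.87. The Tom- value rests on 0.351 TPM of switched genes, and with 1 TPM added the log2 difference was 3.97. With Igha left out it was 3.55 and with the γ genes left out 6.51. For tumor #1 no fold is given because the switched genes are listed at 0 in Tom+ cells, and for the same reason the planned permutation test over both pairs was not run.

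Other features of the Tom+ library of tumor #2 were recorded beside Igha. With limits set after the data were seen, 53 genes had at least 10 TPM in that library and less than 0.5 TPM in each of the others, compared with 12 genes (Tom-) and 18 genes (Tom+) for tumor #1 and 22 for Tom- cells of tumor #2. Of the 53, 25 were immunoglobulin variable gene segments, and such segments numbered 0 in the lists of the other libraries. Among all 34866 genes, 113 Ighv, 100 Igkv and 3 Iglv segments are listed. Igha was the only constant gene among the 53, and its values were known when the limits were set.

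Plasma cells secrete antibody and express Jchain, which joins IgA and IgM into multimers. Jchain had 0.330 TPM (Tom-) and 1.72 TPM (Tom+) in tumor #1, compared with 1.24 TPM (Tom-) and 209 TPM (Tom+) in tumor #2 (a log2 fold change of 3.79 with SE 1.55 and adjusted p = 0.936, limma). The summed TPM of the 8 plasma cell markers was 182, 180.5, 132 and 344 in the same order, and without Jchain it was 181, 179, 131 and 135.5. Prdm1, which encodes the plasma cell regulator Blimp-1, was highest in that library but below 1 TPM in all 4 (0.108 and 0.0180 TPM in tumor #1, 0.105 and 0.570 TPM in tumor #2, Tom- first). Sdc1, the surface marker CD138, was higher in tumor #1 (1.95 and 1.78 TPM) than in Tom+ cells of tumor #2 (0.428 TPM), and Tnfrsf17 had 0.778 and 0.360 TPM in tumor #1 against 0.390 TPM in Tom+ cells of tumor #2. Both were listed at 0 in Tom- cells of tumor #2, and none of the 8 markers was at 0 in the other 3 libraries. Between Tom- and Tom+ cells of tumor #2, Irf4 went from 14.6 to 29.4 TPM, Xbp1 from 18.7 to 21.2 TPM, Derl3 from 2.80 to 2.93 TPM and Mzb1 from 94.8 to 80.6 TPM. The part of plasma cells in the Igha level was not tested.

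**Figure D4:**
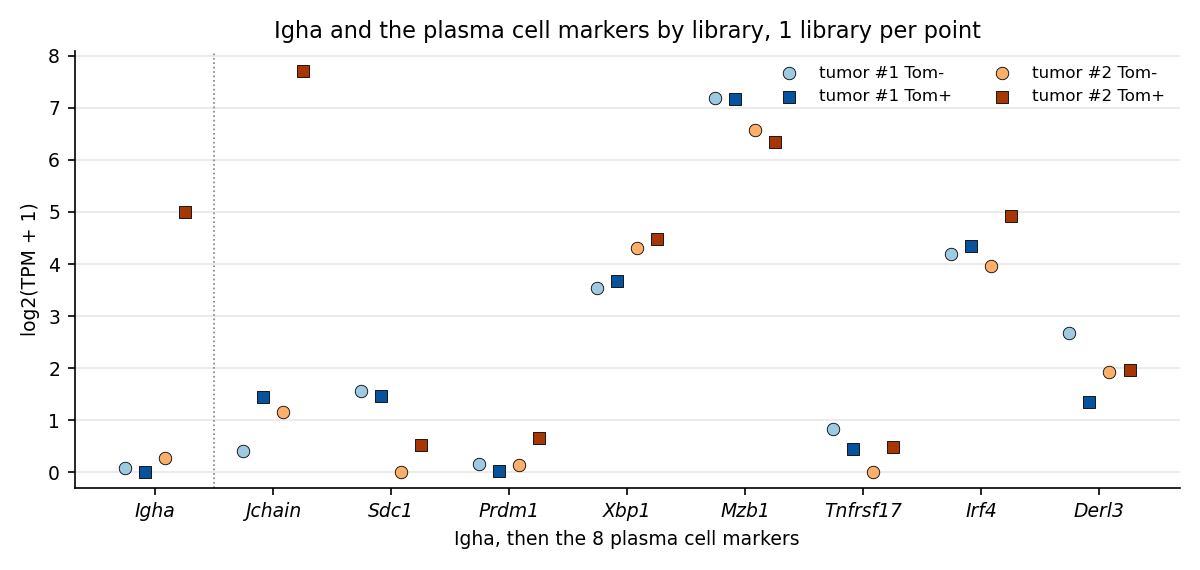
Level of Igha and of the 8 plasma cell markers as log2(TPM + 1), 1 point per library (circles Tom-, squares Tom+, tumor #1 in light and dark blue, tumor #2 in orange and brown). Igha (31.0 TPM) and Jchain (209 TPM) stand apart in Tom+ cells of tumor #2, while Sdc1, Prdm1 and Tnfrsf17 are below 1 TPM there.

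Genes that act with the constant regions were followed as 4 lists. For class switching and DNA repair, 20 genes were tested, with 4 higher in the Tom+ cells of each mouse, 2 lower, and 14 that went opposite ways, as did 47.3% of all genes tested. Their median log2 fold change was -0.032, beside -0.033 for all genes tested. Of the 20, 0 had an unadjusted p-value below 0.05, against 4.67% of all genes tested, and 0 passed after adjustment (limma). The largest changes were those of Nhej1, an end-joining factor (log2 fold change 0.53, SE 0.33, with 0.081 in tumor #1 and 0.98 in tumor #2), and Mad2l2, a subunit of the shieldin complex that directs break repair in switching (-0.53, SE 0.37, with 0.063 in tumor #1 and -1.12 in tumor #2). Mad2l2 had 23.8 TPM (Tom-) and 24.9 TPM (Tom+) in tumor #1, and 20.5 TPM (Tom-) and 8.87 TPM (Tom+) in tumor #2.

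Of 9 genes for receptor assembly and coreceptors, 7 were tested, of which 4 were lower and 1 was higher in the Tom+ cells of each mouse, and their median was -0.20. Among all genes tested, 29.5% were lower and 21.6% higher in both tumors. Cd79b, a signalling partner of surface immunoglobulin, had 157 TPM (Tom-) and 139 TPM (Tom+) in tumor #1, compared with 437 TPM (Tom-) and 351 TPM (Tom+) in tumor #2 (a log2 fold change of -0.25 with SE 0.12 and adjusted p = 0.936, limma). In tumor #2 it was thus lower in the Tom+ library in which Ighm was higher. Cd22, an inhibitory coreceptor, had the largest change of the 7 tested (-0.30, SE 0.16, with -0.49 in tumor #1 and -0.10 in tumor #2). Cr2, a complement coreceptor below the limit for testing and named after its values were seen, was lower in the Tom+ cells of each mouse, with 0.721 TPM (Tom-) and 0.0546 TPM (Tom+) in tumor #1 and 2.59 TPM (Tom-) and 0.440 TPM (Tom+) in tumor #2. None of the 7 had an unadjusted p-value below 0.05, against 4.67% of all genes tested (limma).

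Among the 15 genes for secretion and heavy-chain RNA processing, 12 were tested, 4 were higher and 2 lower in both tumors, and the median was 0.037. Over all genes tested, 21.6% were higher and 29.5% lower in both tumors. After Jchain, the largest change was that of Irf4, a transcription factor of activated B cells and plasma cells, with 17.2 TPM (Tom-) and 19.5 TPM (Tom+) in tumor #1, compared with 14.6 TPM (Tom-) and 29.4 TPM (Tom+) in tumor #2 (a log2 fold change of 0.57 with SE 0.27 and adjusted p = 0.936, limma). None of the 12 had an unadjusted p-value below 0.05, against 4.67% of all genes tested (limma).

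Of the 8 λ constant and surrogate light chain genes, 4 were tested, 1 was lower in both tumors and 3 moved in opposite directions, with a median of 0.081. The shares over all genes tested were 29.5% lower in both tumors and 47.3% in opposite directions. Vpreb3, a protein related to the surrogate light chain, was lower in the Tom+ cells of each mouse (log2 fold change -0.56, SE 0.15) and had an unadjusted p-value of 0.0292 and an adjusted p-value of 0.936 (limma). Iglc2 had the next largest change (0.29, SE 0.37), with 16.6 TPM (Tom-) and 13.2 TPM (Tom+) in tumor #1, compared with 29.0 TPM (Tom-) and 55.0 TPM (Tom+) in tumor #2. Like Ighm, Ighd and Igkc, the λ genes Iglc1, Iglc2 and Iglc3 were lower in Tom+ cells of tumor #1 and higher in those of tumor #2. This pattern was shown by 20.6% of the genes tested, and the split of reads among the λ genes is uncertain. Iglc4, below the limit for testing, went the other way in tumor #2, with 3.63 TPM in Tom- cells and 0 in Tom+ cells. It was listed at 0 in both libraries of tumor #1. Of the pre-B cell receptor genes, Igll1 and Vpreb2 were listed at 0 in all 4 libraries and Vpreb1 stayed at or below 0.306 TPM.

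Ighd varied the most of the 3 tested members, over 1.96 on the log2(TPM + 1) scale, against 1.54 for Ighm and 0.84 for Igkc. The protein-coding genes whose centered pattern over the 4 libraries lay closest to that of Ighd were Acer2 (Euclidean distance 0.0520), Antxr1 (0.116) and Gpcpd1 (0.124). Acer2 (0.518 to 5.08 TPM) and Antxr1 (0.152 to 3.27 TPM) were low, at levels where the log2(TPM + 1) scale understates changes. Their likeness to Ighd therefore holds on that scale and not for folds of TPM. Gpcpd1 had 20.6 TPM (Tom-) and 19.4 TPM (Tom+) in tumor #1, and 63.9 TPM (Tom-) and 83.0 TPM (Tom+) in tumor #2. With 4 libraries likeness in shape is common, since 544 of the 10079 protein-coding genes tested had a Pearson's r above 0.99 with Ighd. Pearson's r leaves out the size of the changes. By distance, 341 of the 10079 genes lay less than 0.5 from Ighd.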

How the data were processed

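The data were 60-base single reads from 4 libraries of sorted splenocytes. The authors trimmed them with Cutadapt, discarded reads under 30 bases, quantified them on GRCm38 transcripts with Salmon (version 1.9 in the submitters' processing notes) and deposited TPM values, 1 per gene. How transcripts were summed to genes is not given in the sources used here. TPM keeps no depth, so precision rests on the spread between the 2 tumors. The identifiers were matched to GENCODE M21, which holds 34652 of 34866, and the annotation behind the TPM values may be a different release.

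Genes with at least 1 TPM in at least 2 libraries were fitted as log2(TPM + 1), which understates changes of low genes, with limma 3.58.1 in R 4.3.3 (Tom status and tumor, empirical Bayes with a variance trend, Benjamini-Hochberg adjustment, threshold 0.05). The tumor was kept as a block because both its libraries come from the same mouse and the authors tested paired samples; their edgeR test needs read counts and was not run. The fit was tested on simulated data in which each changed gene moved by the same amount in both tumors. That test does not cover changes that differ between the tumors. Ratios used TPM without a pseudocount. Shared windows were counted by exact match on either strand for genes outside the 9. Python 3.11.15, pandas 2.3.3, numpy 2.4.6 and matplotlib 3.10.9 were used.

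The members, lists and tests were chosen with earlier results of these data known. Named genes were the 9 members, in each list those with an unadjusted p-value below 0.05 and the 2 with the largest change, the 3 protein-coding genes most like the most variable member, and genes said in the text to have been picked after their values were seen. The B cell, plasma cell, T cell, myeloid, NK cell and erythroid markers were listed by name and described by their values. Ahsp and Ero1b of the lists were not matched by symbol and were not analysed here. 1 gene of the class-switch list is not reported here.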

Additional observations from a re-analysis of the deposited data

Results flagged for a closer look

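The following results went in opposite directions in the tumors, each of which is 1 pair of libraries, and the differences were not tested because no replicate of a tumor exists. The log2 fold change of Tom+ over Tom- cells was 0.82 higher in tumor #2 than in tumor #1 for Ighm (-0.088 against 0.74), 0.51 higher for Ighd (-0.16 against 0.35) and 0.96 higher for Igkc (-0.12 against 0.84). For Igha it was 4.81 higher (-0.077 against 4.73), where the value of tumor #1 is a difference between 0.0549 TPM and a gene listed at 0. The log2 ratio of Igkc to the summed heavy-chain constant genes differed by 0.14 between the tumors (-0.035 against 0.11).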

How the results depend on the processing

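The counts of members past an adjusted p-value of 0.05 and at an unadjusted p-value below 0.05 were 0 with each of the 10 alternatives: no replicate block, pseudocounts of 0.1 and 0.5, no filter on low TPM, trimmed-mean scaling, a filter at 5 TPM on average, quantile normalization, scaling to genes that are not immunoglobulin genes, no variance trend and a robust prior. Among all genes, the number at an unadjusted p-value below 0.05 was 530 with the tumor as a block and 140 with no replicate block (limma). Over these settings the log2 fold change stayed positive, between 0.26 and 0.35 for Ighm, 0.099 and 0.15 for Ighd, and 0.36 and 0.39 for Igkc. With each tumor left out in turn, a value with no test, it ranged from -0.088 to 0.74 for Ighm, from -0.16 to 0.35 for Ighd, from -0.12 to 0.84 for Igkc and from -0.077 to 4.73 for Igha, so the sign of all 4 turned without tumor #2. For Igha, whose alternatives were added after seeing the data, the mean was 3.02 with a pseudocount of 0.1 and 2.66 with 0.5.

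The paired log2 difference of the Ighd to Ighm ratio (-0.23) was -0.24 without the replicate block and kept its sign with the other alternatives, from -0.38 to -0.071 with a tumor left out. That of Igkc to the heavy-chain constant genes (0.037) turned to -0.075 without the replicate block and to -0.0034 with the λ constant genes added, and ranged from -0.035 to 0.11 with a tumor left out. For the switched-to-unswitched ratio, tumor #2 alone gave 5.87, and 5.89 with TPM multiplied by exonic length, 6.51 with the γ genes and 3.55 with Igha left out. With 1 TPM added the mean of both tumors was 1.99 (0.013 and 3.97). Without the replicate block, the ratios of TPM summed over both tumors gave a log2 difference of 5.91, which is not a mean of the tumors. Tom+ cells of tumor #1 added no switched TPM to it. No value could be given without tumor #2. Depth is unknown, so values below 1 TPM have no stated precision.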
